A study of Rattus norvegicus with 4 samples.

Results

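Immediate early genes and heat shock genes are switched on within minutes of a stimulus or a proteotoxic stress, and 10 of them, out of 32883 genes in the files, were followed through the cell classes of rat perivascular and brown fat. The members were taken by symbol. They were the immediate early genes Fos, Fosb, Jun, Junb, Egr1, Atf3, Ier2 and Nr4a1 (8 genes) and the heat shock genes Hsph1 and Dnajb1 (2 genes), and all 10 were found. The libraries were 2 of thoracic aorta perivascular adipose tissue (taPVAT) and 2 of subscapular brown adipose tissue (BAT), each with a replicate 1 and a replicate 2, from naive male Dahl salt-sensitive rats (strain SS/HsdMcwiCrl) aged 16 weeks. All groups shared this strain, age and sex, received no treatment, and were snap frozen before nuclei were isolated for droplet-based 3-prime RNA sequencing. The design text speaks of 2 rats for each tissue without saying whether a rat gave both, and the labels give no batch or day for a replicate number, so animal, handling and batch cannot be told apart between replicates.

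Fos and Fosb pair with Jun and Junb in the AP-1 transcription factor, a dimer that binds DNA and relays growth factor and stress kinase signals. Egr1 is a zinc finger transcription factor under the control of serum response factor, Atf3 a stress-induced factor of the ATF/CREB family, Ier2 a small nuclear protein induced by growth factors, and Nr4a1 an orphan nuclear receptor that adrenergic signalling and cAMP induce in brown fat. Hsph1 is a large heat shock protein that exchanges nucleotide on Hsp70, and Dnajb1 is the Hsp40 co-chaperone that delivers unfolded proteins to Hsp70; both are targets of heat shock factor 1.

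Of 14765 to 44637 barcodes in a library, the 12336 to 42979 nuclei with 500 or more genes entered the comparisons, and the libraries held 63654436 to 158140959 unique molecular identifiers (UMIs). Nuclei were assigned to classes by marker genes, none of them a member, and "adipocyte nuclei" below means the nuclei that passed the adipocyte gate. That gate asked for at least 5 adipocyte markers, without enrichment over depth, and for no other class near its gate. Passing it thus also rested on the absence of other markers. In replicates 1 and 2 of taPVAT and of BAT, endothelial nuclei held a median of 8, 6, 8 and 7 adipocyte markers, against 10, 10, 10 and 9 in adipocyte nuclei. Per library there were 9729 to 32937 adipocyte, 549 to 3234 vascular endothelial, 568 to 1518 fibroblast, 348 to 1357 mural (pericyte and smooth muscle) and 257 to 446 myeloid nuclei. In vascular endothelial nuclei the endothelial markers, such as Pecam1, Cdh5 and Flt1, summed to between 3599 and 4560 UMIs per 1000000 UMIs of the class (CPM), against 37.9 to 120 CPM in adipocyte nuclei. Fibroblast markers summed to 3722 to 6927 CPM in their own class and to 79.0 to 112 CPM in adipocyte nuclei. Adipocyte transcripts were present in every class, with a median adipocyte marker at 0.454 to 0.829 times its adipocyte level over 5 other classes and 4 libraries, so a value in a minor class can include RNA released from adipocytes. Endothelial, fibroblast, mural and myeloid nuclei also had a higher median mitochondrial share (10.1% to 18.6%) than adipocyte nuclei (6.11% to 9.63%). Between 126 and 424 cell barcodes were shared by each pair of libraries, at most 1.29% of the smaller library.

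The promoters of 4 members are shown because these 4 carry motifs of the factors named above. A link between the motifs and the responses below was not tested. RefSeq entries on the GRCr8 build matched 7 of the 10 members, and the 300 bases below run from 250 before to 50 after the annotated start, 5′ to 3′ on the strand of the gene. Capitals mark 2 CArG boxes, the motif of serum response factor, in Egr1. In Ier2 they mark the cAMP response element TGACGTCA, and in Hsph1 and Dnajb1 the heat shock element GAANNTTC, at 1 and 2 places. Motifs were searched on both strands and none of the marked ones overlap.
Egr1 promoter, chr18:26736828-26737127, plus strand: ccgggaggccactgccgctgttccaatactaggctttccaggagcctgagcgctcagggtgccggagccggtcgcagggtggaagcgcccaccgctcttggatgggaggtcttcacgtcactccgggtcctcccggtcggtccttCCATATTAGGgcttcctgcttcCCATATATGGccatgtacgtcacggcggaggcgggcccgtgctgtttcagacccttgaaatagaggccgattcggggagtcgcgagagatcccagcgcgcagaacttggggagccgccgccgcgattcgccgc
Ier2 promoter, chr19:40399123-40399422, plus strand: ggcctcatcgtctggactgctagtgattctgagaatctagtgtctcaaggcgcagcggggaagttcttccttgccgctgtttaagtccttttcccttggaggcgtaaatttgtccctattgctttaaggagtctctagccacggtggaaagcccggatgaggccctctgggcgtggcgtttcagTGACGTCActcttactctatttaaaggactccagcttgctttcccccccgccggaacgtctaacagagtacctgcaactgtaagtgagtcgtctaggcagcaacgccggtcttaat
Hsph1 promoter, chr12:10427118-10427417, plus strand: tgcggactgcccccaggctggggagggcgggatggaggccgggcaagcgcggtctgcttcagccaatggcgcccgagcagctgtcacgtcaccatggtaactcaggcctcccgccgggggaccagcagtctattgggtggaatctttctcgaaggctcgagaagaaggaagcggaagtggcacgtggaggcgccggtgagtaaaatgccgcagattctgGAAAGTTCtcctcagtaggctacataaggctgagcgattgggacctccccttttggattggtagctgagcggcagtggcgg
Dnajb1 promoter, chr19:41431092-41431391, minus strand: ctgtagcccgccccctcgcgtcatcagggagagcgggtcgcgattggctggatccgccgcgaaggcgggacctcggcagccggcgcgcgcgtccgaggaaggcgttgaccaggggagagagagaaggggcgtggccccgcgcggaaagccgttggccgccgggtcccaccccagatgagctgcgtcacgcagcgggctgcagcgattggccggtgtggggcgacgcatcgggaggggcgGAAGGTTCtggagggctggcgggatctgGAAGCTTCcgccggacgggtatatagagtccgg
Over 33469 promoters of this length, 1.64% held a CArG box, 1.83% the cAMP response element and 8.59% the heat shock element. The AP-1 motif TGANTCA was in 7.33% of all promoters and in 0 of the 7 member promoters. The TATA motif TATAAA was in 14.2% of all promoters and in those of Fosb and Junb. The Nr4a1 promoter held 0 matches to each motif searched, the cAMP response element TGACGTCA included. Partial or inexact forms of TGACGTCA were not searched, so the 0 does not show that this promoter lacks sites that respond to cAMP. A match is a string of letters and was not measured as a bound site.

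In adipocyte nuclei, Fos, Fosb, Junb, Egr1 and Ier2 were high in taPVAT replicate 1 and BAT replicate 2 and low in the other two libraries. Fos stood at 23.4 and 7.68 CPM in replicates 1 and 2 of taPVAT and at 6.13 and 21.2 CPM in those of BAT. Fosb stood at 20.3, 5.89, 6.06 and 30.2 CPM in the same order of libraries. Egr1 stood at 14.4, 5.31, 4.17 and 19.99 CPM. The replicates of a tissue lay further apart than the tissues did, and each tissue had 1 high and 1 low library. Fos was 3.04-fold lower in replicate 2 than in replicate 1 of taPVAT (95% interval 2.74 to 3.38) and 3.45-fold higher in replicate 2 of BAT (3.17 to 3.76). Here and below, intervals on a ratio are exact and cover counting error only, since 1 library against 1 allows no test. Fosb was 3.46-fold lower (3.07 to 3.895) in taPVAT and 4.98-fold higher (4.59 to 5.40) in BAT.

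Junb and Ier2 followed Fos with smaller ratios. Junb stood at 23.9, 11.8, 11.6 and 25.0 CPM and Ier2 at 10.9, 5.39, 5.96 and 13.1 CPM in adipocyte nuclei, again with taPVAT replicate 1 and BAT replicate 2 high. Jun stood at 39.8, 28.3, 37.2 and 57.5 CPM, and its ratio of replicate 2 to replicate 1 was 0.710 in taPVAT and 1.55 in BAT. Egr1, Fos, Fosb, Ier2 and Junb, 5 of the 10 members, were at least 2-fold lower in replicate 2 of taPVAT and at least 2-fold higher in replicate 2 of BAT, against 1.05% of the 14613 genes with a mean of at least 20 UMIs. With TMM-scaled totals, with at least 1000 genes per nucleus or with at most 10% mitochondrial UMIs, the taPVAT log2 ratios of Junb and Ier2 were -0.97 to -0.90, and the other 3 members kept this pattern. With the highest Scrublet doublet scores removed, the taPVAT log2 ratio of Ier2 was -0.998 and 4 members kept it. The libraries with the higher Fos level, taPVAT replicate 1 and BAT replicate 2, were also the shallower ones in adipocyte nuclei. Their medians were 3328 and 2929 UMIs per nucleus, against 5034 in taPVAT replicate 2 and 4162 in BAT replicate 1. The part of depth in the pattern was not tested. The median mitochondrial share of adipocyte nuclei was 6.84% and 9.63% in taPVAT replicate 1 and BAT replicate 2, and 6.11% and 6.50% in the other libraries. Among nuclei with at most 10% mitochondrial UMIs, the log2 ratio of replicate 2 to 1 for Fos was -1.41 in taPVAT and 1.97 in BAT.

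**Figure D1:**
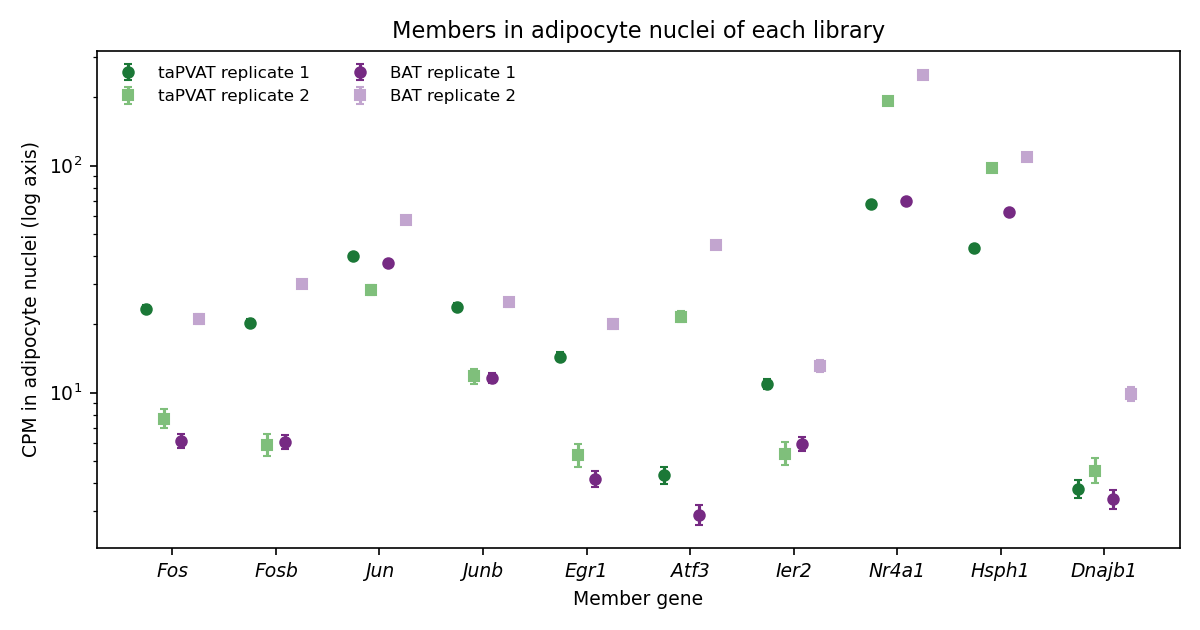
CPM of each member in adipocyte nuclei (log axis), by library; points are 1 library each and bars are exact 95% intervals for counting error. Fos, Fosb, Junb, Egr1 and Ier2 are high in taPVAT replicate 1 and BAT replicate 2, while Atf3, Nr4a1 and Hsph1 are higher in both replicate 2 libraries.

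Atf3, Nr4a1 and Hsph1 followed the replicate number in both tissues. In adipocyte nuclei Atf3 stood at 4.33 and 21.6 CPM in replicates 1 and 2 of taPVAT and at 2.89 and 44.5 CPM in those of BAT. Nr4a1 stood at 67.7, 192, 69.8 and 251 CPM. Both replicate 2 libraries lay above both replicate 1 libraries for these genes, without overlap. The share of all genes in this order was not taken. Differences between replicates correlated between the tissues over 14613 genes of adipocyte nuclei (r = 0.692). Atf3 was 4.99-fold (4.51 to 5.53) and 15.4-fold (13.9 to 17.2) higher in replicate 2 of taPVAT and of BAT, and Nr4a1 was 2.84-fold (2.76 to 2.92) and 3.60-fold (3.51 to 3.69) higher. These were the 2 members at least 2-fold higher in both tissues, against 3.37% of genes. Among the chaperones, Hsph1 stood at 43.3, 97.7, 62.6 and 109 CPM, 2.25-fold higher in taPVAT (2.17 to 2.34) and 1.74-fold higher in BAT (1.69 to 1.79). The summed adipocyte markers of these nuclei followed the replicate number too, at 17297, 27892, 17508 and 28520 CPM, and their part in the ratios of Atf3, Nr4a1 and Hsph1 was not tested. Dnajb1, at 3.75, 4.54, 3.39 and 9.90 CPM, was high in BAT replicate 2 alone. In taPVAT its ratio was 1.21 (1.03 to 1.41), and in BAT it was 2.92-fold higher in replicate 2 (2.60 to 3.30).

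Vascular endothelial nuclei showed a different combination, in which chaperones, Atf3, Nr4a1, Jun and Egr1 were high together in replicate 2 of both tissues. Hsph1 stood at 37.0 and 124 CPM in replicates 1 and 2 of taPVAT and at 50.8 and 158 CPM in those of BAT. Dnajb1 stood at 4.2, 19.4, 5.30 and 19.1 CPM. Egr1 stood at 26.0, 76.5, 19.8 and 63.9 CPM. For each of these genes both replicate 2 libraries lay above both replicate 1 libraries. The share of all genes in this order was not taken here either, and replicate differences correlated between the tissues (r = 0.728 over 10336 genes). Hsph1 was 3.36-fold (2.80 to 4.03) and 3.10-fold (2.74 to 3.52) higher in replicate 2 of taPVAT and of BAT. Egr1 was 2.94-fold higher in taPVAT (2.34 to 3.69), the opposite direction to adipocyte nuclei of the same tissue, and 3.22-fold higher in BAT (2.64 to 3.95).

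Atf3 had 40, 63, 36 and 270 endothelial UMIs, or 4.80, 39.5, 4.89 and 56.0 CPM, which put replicate 2 8.23-fold (5.45 to 12.6) and 11.5-fold (8.07 to 16.7) above replicate 1. Jun stood at 68.2, 141, 55.3 and 135 CPM. Fos did not join this pattern in taPVAT, with 25.7, 13.2, 4.75 and 20.3 CPM, and neither did Fosb, with 24.6, 13.2, 6.93 and 33.0 CPM. In all, 6 of 10 members (Atf3, Dnajb1, Egr1, Hsph1, Jun and Nr4a1) were at least 2-fold higher in replicate 2 of both tissues, against 3.15% of 10336 genes. In BAT alone all 10 members were at least 2-fold higher in replicate 2, against 5.18% of genes, and in taPVAT 6 were, against 5.95%. The summed adipocyte markers in endothelial nuclei stood at 13332, 15190.5, 13414 and 17884 CPM. They were also higher in replicate 2 in mural and myeloid nuclei of both tissues, while in fibroblast nuclei they were lower in taPVAT and higher in BAT. Their part in the members' ratios was not tested. The median mitochondrial share of endothelial nuclei was 14.1% and 14.7% in the replicate 1 libraries and 16.8% and 16.6% in the replicate 2 libraries. With nuclei limited to at most 10% mitochondrial UMIs, which left 122 to 1141 endothelial nuclei per library, Atf3, Dnajb1, Hsph1 and Nr4a1 remained at least 2-fold higher in both tissues. The taPVAT log2 ratio of Jun was then 0.17, from 1.05, and that of Egr1 0.62, from 1.56. In BAT alone 7 of 10 members then stayed past 2-fold, with Jun at a log2 ratio of 0.91, Junb at 0.96 and Ier2 at 0.996. With at least 1000 genes per nucleus the count in both tissues was again 6, with Junb in place of Jun.

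In fibroblast nuclei, the AP-1 genes, Egr1 and Ier2 were highest in taPVAT replicate 1. Fos stood at 124 CPM there, against 13.8 CPM in the other taPVAT library and 20.2 and 20.9 CPM in replicates 1 and 2 of BAT. Fosb stood at 127, 40.1, 30.6 and 40.5 CPM, and Junb at 87.0, 32.9, 20.2 and 48.4 CPM. Jun stood at 122, 66.4, 64.6 and 60.9 CPM. For Fos the other 3 libraries lay within 13.8 to 20.9 CPM, so 1 library carried the difference. Fos was 8.98-fold higher in replicate 1 than in replicate 2 of taPVAT (5.82 to 14.6), from 553 and 21 UMIs, and in BAT its ratio of replicate 2 to replicate 1 was 1.03 (0.700 to 1.51). Egr1, at 112, 60.5, 31.9 and 65.6 CPM, and Ier2, at 45.3, 19.1, 14.5 and 24.7 CPM, were also highest in taPVAT replicate 1.

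Of the 9 members with enough fibroblast UMIs, Fos, Fosb, Ier2 and Junb (4) were at least 2-fold lower in replicate 2 of taPVAT, against 5.87% of 9389 genes. Of these, Junb (1) was also at least 2-fold higher in replicate 2 of BAT, a combination shown by 0.0852% of genes. Atf3 and Nr4a1 (2) were at least 2-fold higher in both tissues, against 1.69% of genes. Atf3 stood at 4.26, 19.7, 3.12 and 47.0 CPM and Nr4a1 at 52.0, 118, 43.9 and 179 CPM, the order seen in adipocyte nuclei. By library, Atf3 was at 0.984, 0.912, 1.08 and 1.06 times its adipocyte level and Nr4a1 at 0.768, 0.613, 0.629 and 0.711 times. The median adipocyte marker was at 0.710, 0.454, 0.686 and 0.655 times in fibroblast nuclei. The part of released adipocyte RNA in these values of Atf3 and Nr4a1 was not tested. Fibroblast nuclei of taPVAT replicate 1 had the lowest median mitochondrial share of the 4 libraries, 11.3% against 12.2% to 15.2%. With at most 10% mitochondrial UMIs, which left 96 fibroblast nuclei in taPVAT replicate 2, the taPVAT log2 ratio of Fos was -3.93, that of Ier2 was -0.57 and that of Atf3 was 0.67. Under this limit 8 rather than 9 members had enough UMIs to be counted, and Nr4a1 (1) was counted as higher in both tissues. Before the limit, Atf3 rested on 19 and 30 UMIs in taPVAT and 12 and 101 in BAT.

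**Figure D2:**
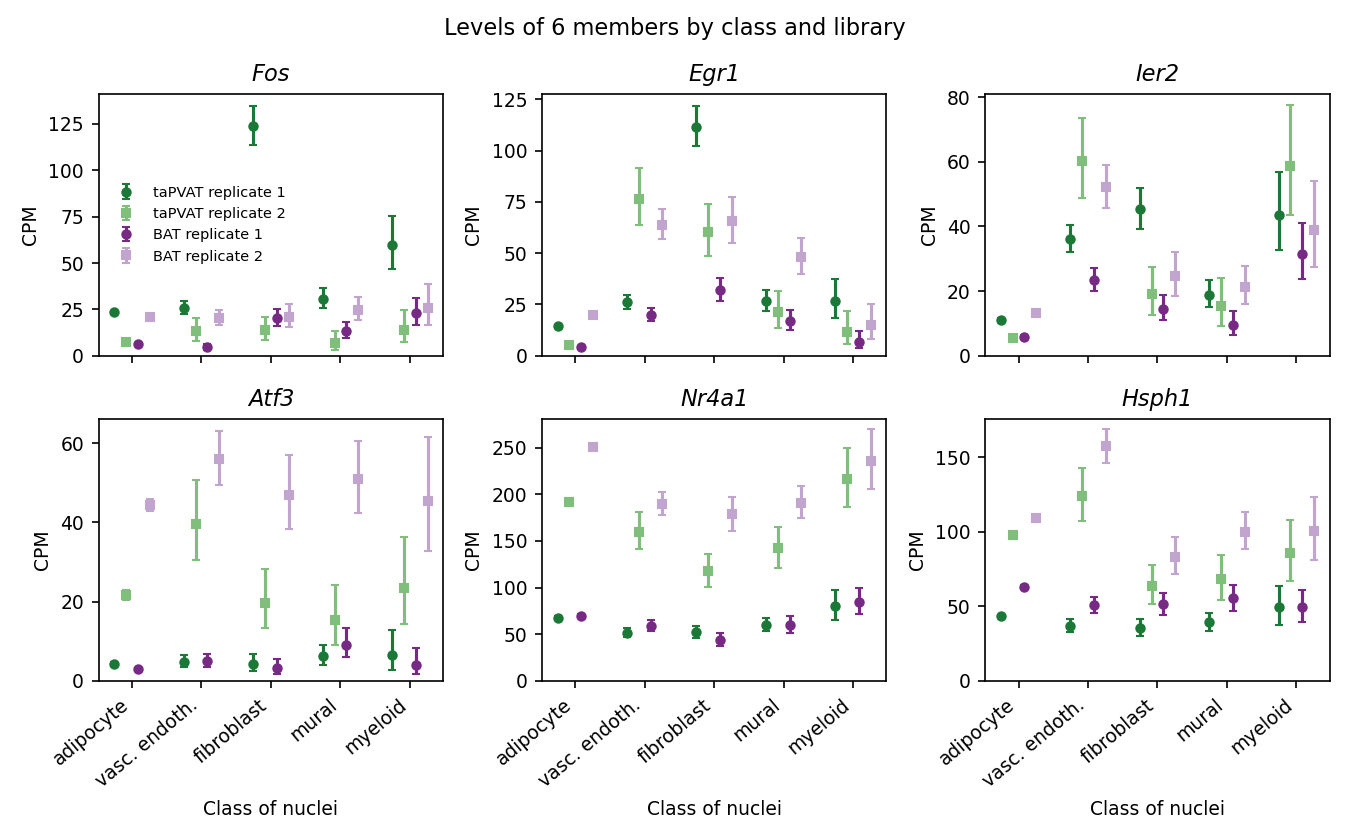
CPM of 6 members (linear axes from 0) in 5 classes of nuclei, by library; points are 1 library each and bars are exact 95% intervals for counting error. Fos is highest in fibroblast nuclei of taPVAT replicate 1, Egr1 and Ier2 in endothelial nuclei are higher in replicate 2, and Atf3 and Nr4a1 are higher in replicate 2 in all 5 classes.

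Mural nuclei had higher Atf3 and Nr4a1 in replicate 2 of both tissues and higher Egr1 in replicate 2 of BAT, with few member UMIs in taPVAT replicate 2. Egr1 stood at 26.6, 21.3, 16.96 and 48.1 CPM in mural nuclei, and Atf3 at 6.20, 15.3, 9.16 and 50.9 CPM. Of 9 members counted, Atf3, Egr1, Ier2, Junb and Nr4a1 (5) were at least 2-fold higher in replicate 2 of BAT, against 3.63% of genes, and Fos and Fosb (2) were at least 2-fold lower in replicate 2 of taPVAT, against 5.48%. Atf3 and Nr4a1 (2) were at least 2-fold higher in replicate 2 of taPVAT as well, against 4.73%. Mural Fos rested on 134 and 8 UMIs in taPVAT. In myeloid nuclei, Fos stood at 59.8, 14.1, 22.9 and 26.0 CPM, highest in taPVAT replicate 1 as in fibroblasts. Of 7 members counted there, Fosb (1) was at least 2-fold lower in replicate 2 of taPVAT and higher in that of BAT, against 0.0572% of genes, from 46 and 5 UMIs in taPVAT and 13 and 17 in BAT. Fosb reached the required mean of 20 UMIs only through its 46 UMIs in taPVAT replicate 1, the library where it was highest. Its place in this count thus rests on that library. Myeloid Junb stood at 38.0, 81.1, 22.9 and 54.2 CPM, 2.13-fold (1.45 to 3.16) and 2.36-fold (1.53 to 3.68) higher in replicate 2 of taPVAT and of BAT. Its taPVAT log2 ratio was 0.39 with at most 10% mitochondrial UMIs and 0.98 with TMM-scaled totals, from 1.09. Nr4a1 was higher in replicate 2 of both tissues in every class examined, including T or NK lymphocyte nuclei at 47.8, 183, 64.5 and 226 CPM. Its level in the other classes was 0.613 to 1.21 times the adipocyte level over 20 class and library pairs, a range that overlaps that of the adipocyte markers, and the part of released adipocyte RNA in it was not tested. The range for Atf3 was 0.349 to 3.17 times and that for Egr1 0.746 to 14.4 times.

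Over the 5 classes, 45 member values could be counted. In taPVAT 15 were at least 2-fold higher and 13 at least 2-fold lower in replicate 2, against 5.85% and 6.9% of all gene and class values, while in BAT 31 were at least 2-fold higher and 0 lower, against 5.74% and 7.99%. The summed level of the 8 immediate early members in BAT was 144 CPM in replicate 1 and 463 in replicate 2 in adipocyte nuclei, and 191 and 594 CPM in endothelial nuclei. In taPVAT it stood at 205 and 278 CPM in adipocyte nuclei, 269 and 564 CPM in endothelial nuclei, and 673 and 370 CPM in fibroblast nuclei. In adipocyte nuclei of taPVAT, Nr4a1 and Atf3 were higher in replicate 2 and the other 6 immediate early members lower, and Nr4a1 alone made up 67.7 of the 205 and 192 of the 278 CPM. The summed heat shock members were higher in replicate 2 in all 5 classes of both tissues, for example at 41.2 and 144 CPM in taPVAT endothelial nuclei and at 56.1 and 177 CPM in BAT endothelial nuclei. Hsph1 made up most of this sum, at 37.0 and 124 CPM in taPVAT endothelial nuclei. Dnajb1 was lower in replicate 2 of taPVAT in fibroblast nuclei (4.26 and 3.94 CPM) and mural nuclei (5.51 and 0.851 CPM, from 24 and 1 UMIs). It was higher in replicate 2 in the other taPVAT classes and in all 5 classes of BAT. The replicates of one number share no stated origin, so this is a description of 4 libraries.

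**Figure D3:**
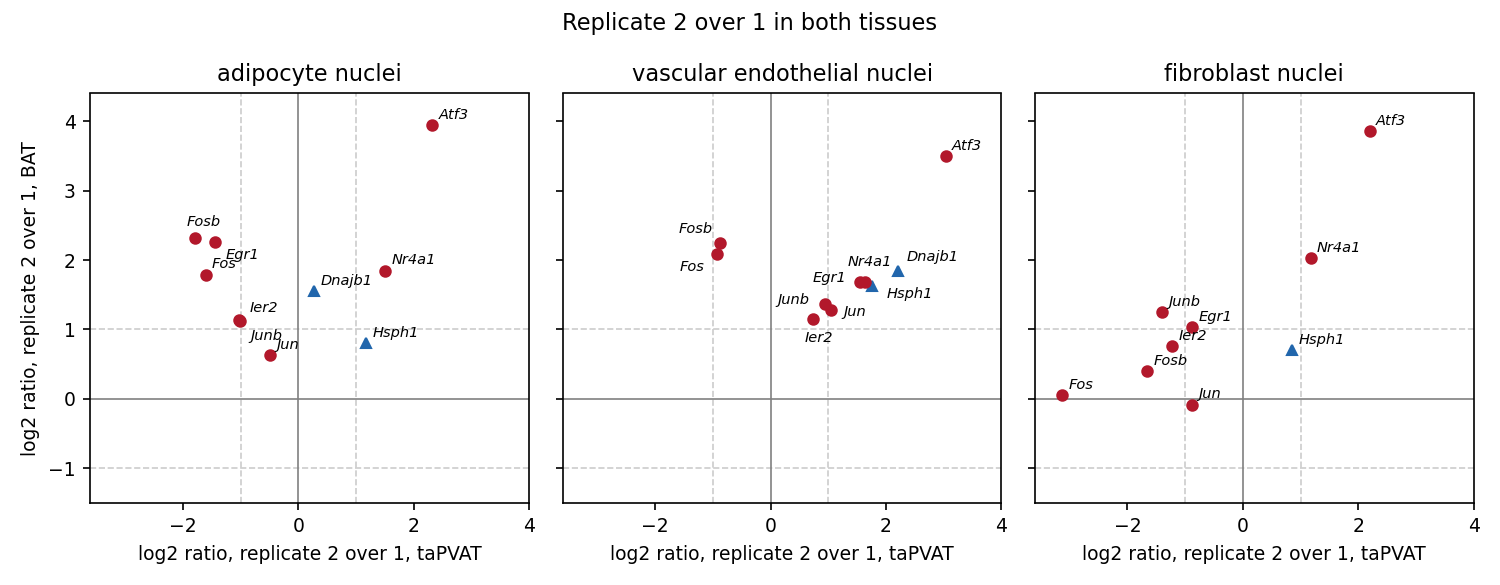
Log2 ratio of replicate 2 to replicate 1 in taPVAT (horizontal) and BAT (vertical) for each counted member; circles are immediate early and triangles heat shock members, and dashed lines mark 2-fold. In adipocyte nuclei 5 members lie beyond 2-fold at the upper left, lower in taPVAT and higher in BAT, and in endothelial nuclei 6 lie beyond 2-fold at the upper right.

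The classes were compared over the 4 libraries with edgeR's quasi-likelihood test, with the library as a term and Benjamini-Hochberg adjustment over all genes. The p-values measure only the spread between these libraries. Each SE is the size of the log2 fold change divided by the square root of the F statistic of the fit. It is not an SE of the ratios in the 4 libraries. Endothelial nuclei had more Egr1 and Ier2 than adipocyte nuclei in all 4 libraries. Ier2 was 2.09 ± 0.23 (SE) log2 units higher (adjusted p = 0.000159), with ratios of 3.30, 11.2, 3.92 and 3.98 in the 4 libraries. Egr1 was 1.94 ± 0.37 log2 units higher (adjusted p = 0.00344), with ratios of 1.81, 14.4, 4.76 and 3.20 in the 4 libraries. Jun was 1.05 ± 0.22 log2 units higher (adjusted p = 0.00519). In all 5 members were called higher in endothelial nuclei (Dnajb1, Egr1, Ier2, Jun and Junb), against 23.5% of 15195 genes, and Nr4a1 was called lower (1 member), against 22.5%. Junb at 0.84 and Dnajb1 at 0.78 log2 units were not called without BAT replicate 1 (edgeR adjusted p = 0.0547 and 0.0800), without BAT replicate 2 (0.0833 and 0.124) or with no filter on low counts (0.0501 and 0.0655). Dnajb1 was also not called without taPVAT replicate 2, with at least 1000 genes per nucleus, with at most 10% mitochondrial UMIs or with DESeq2 (adjusted p = 0.0533 to 0.110).

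Over the 4 libraries together, the AP-1 genes joined Egr1 and Ier2 above the adipocyte level in fibroblast nuclei. By library, Fos had ratios of 5.31, 1.80, 3.30 and 0.989 and Jun of 3.06, 2.35, 1.74 and 1.06, the last in BAT replicate 2. Egr1 was 2.47 ± 0.24 log2 units higher (edgeR adjusted p = 7.29e-05), with ratios of 7.75, 11.4, 7.66 and 3.28 in the 4 libraries. Fosb was 1.76 ± 0.33 log2 units higher (adjusted p = 0.00280), Ier2 1.23 ± 0.19 (adjusted p = 0.00118) and Junb 0.99 ± 0.18 (adjusted p = 0.00225). Fos, Fosb, Jun, Junb, Egr1 and Ier2 (6 members) were called higher, against 18.8% of 15503 genes, and Nr4a1 and Hsph1 (2 members) lower, against 23.8%. Fos at 1.07 ± 0.34 log2 units (adjusted p = 0.0325) was not called without taPVAT replicate 1, at 0.63 log2 units (adjusted p = 0.158), nor without BAT replicate 1, at 0.92 (adjusted p = 0.119). Jun, at 0.65 ± 0.21 log2 units, was not called without taPVAT replicate 1, taPVAT replicate 2 or BAT replicate 1 (edgeR adjusted p = 0.116, 0.0592 and 0.0638).

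In mural nuclei Egr1 was 1.33 ± 0.20 log2 units higher than in adipocyte nuclei (edgeR adjusted p = 0.000556) and Ier2 0.73 ± 0.16 (adjusted p = 0.00558). Counted over all members, 3 were higher (Fosb, Egr1 and Ier2), against 17.5% of 15221 genes, and 2 lower (Nr4a1 and Hsph1), against 16.4%. Without BAT replicate 1 the mural calls of Fosb and Hsph1 were lost, and without BAT replicate 2 those of Fosb and of both lower members, Nr4a1 and Hsph1. The Hsph1 call was also lost without taPVAT replicate 1, that of Fosb with DESeq2 and with the highest Scrublet scores removed, and that of Ier2 with at most 10% mitochondrial UMIs (adjusted p = 0.0550 to 0.121). In myeloid nuclei Ier2 was 2.11 ± 0.21 log2 units higher (edgeR adjusted p = 1.16e-09), Junb 1.15 ± 0.21 (adjusted p = 5.15e-05) and Fos 0.94 ± 0.22 (adjusted p = 0.000926), against 16.9% of 14972 genes called higher. Hsph1 was the 1 member called lower in myeloid nuclei, against 16.8% of genes, at -0.37 log2 units (edgeR adjusted p = 0.0310). It was not called with DESeq2 (adjusted p = 0.0565), without taPVAT replicate 2, BAT replicate 1 or BAT replicate 2 (edgeR adjusted p = 0.0634, 0.163 and 0.133), with at least 1000 genes per nucleus (0.0627) or with at most 10% mitochondrial UMIs (0.0934). Among the members, Egr1 had the highest log2 fold change in fibroblast and mural nuclei and Ier2 in myeloid and endothelial nuclei, and Atf3 was called in none of the 4 class comparisons, with adjusted p-values of 0.0655 to 0.861. The median gene stood at 0.18 to 0.36 log2 units in DESeq2 in these comparisons, against -0.10 to -0.05 in edgeR, and no called member turned. DESeq2 tested other sets of genes as well as scaling differently, and their parts in this shift were not tested.

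**Figure D4:**
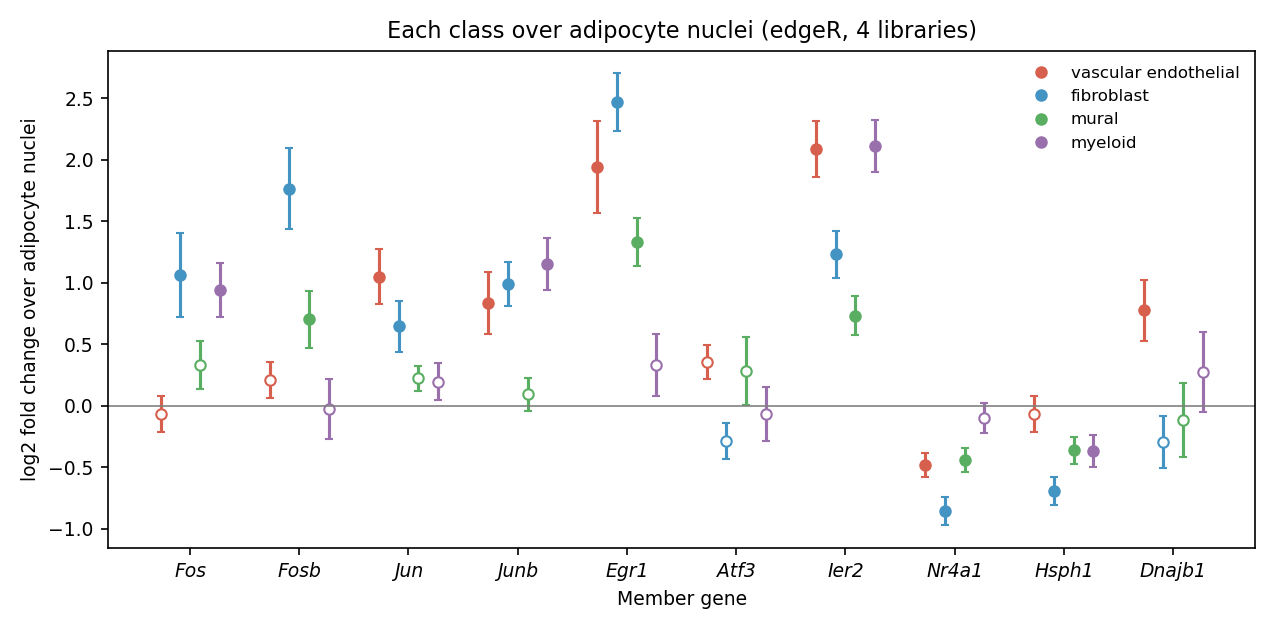
Log2 fold change of each member in 4 classes over adipocyte nuclei, from edgeR with the library as a term. Bars are 1 SE derived from the F statistic of the fit, and filled points have an adjusted p under 0.05. Egr1 and Ier2 are higher in most classes, Nr4a1 and Hsph1 are lower in the 3 classes each where their points are filled, and Atf3 has open points throughout.

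No member was called between the tissues. In adipocyte nuclei Fos averaged 15.5 ± 11.1 CPM in taPVAT and 13.6 ± 10.6 in BAT (SD, n = 2), and Nr4a1 averaged 130 ± 87.9 and 160 ± 128 CPM. In fibroblast nuclei Fos averaged 68.9 ± 77.9 CPM in taPVAT and 20.6 ± 0.481 in BAT. The libraries of the tissues overlapped for both genes in adipocyte nuclei, and the means of the tissues differed by less than either SD. In edgeR the count of called members was 0 of 10 in all nuclei and in each of the 5 classes, with 0 of 10 at an unadjusted p under 0.05. With replicate number as a block, edgeR called 0 members too, with 1 at an unadjusted p under 0.05 in all nuclei, 0 in adipocyte, 4 in endothelial, 4 in fibroblast, 3 in mural and 3 in myeloid nuclei and a smallest adjusted p of 0.0575, in endothelial nuclei. DESeq2 also called 0 in each, with 1 member in fibroblast and 1 in mural nuclei at an unadjusted p under 0.05, and the shares of all genes called in edgeR were 0.0% except for 0.127% in fibroblast nuclei. Calls appeared when 1 library was left out. Each such fit had 1 library in 1 of the tissues, which is assumed to vary like the pair of the other tissue. Adipocyte Atf3 was 1.78 log2 units lower in taPVAT without BAT replicate 1 (edgeR adjusted p = 0.0206) and 2.27 higher without BAT replicate 2 (adjusted p = 0.0272), in fits that called 0.648% and 0.65% of all genes. Endothelial Atf3 was called lower in taPVAT without taPVAT replicate 2 (adjusted p = 0.0158), against 0.269% of genes called, and mural Atf3 without BAT replicate 1 (adjusted p = 8.86e-05), against 0.875%. In fibroblasts without taPVAT replicate 2, Fos was 2.56 log2 units higher in taPVAT (adjusted p = 3.6e-06), Fosb 1.80 higher (adjusted p = 0.00561) and Atf3 2.57 lower (adjusted p = 0.00142), against 1.42% of genes called. With no filter on low counts, fibroblast Fos and mural Atf3 were called as well (adjusted p = 0.000507 and 0.0142), against 1.35% and 0.522% of genes.

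Each nucleus with at least 1000 UMIs was thinned to 1000 UMIs, and those with UMIs of at least 3 members were counted. Nuclei with fewer UMIs were left out of the thinned shares. In replicates 1 and 2 of taPVAT these were 80 and 7 fibroblast nuclei and 272 and 18 endothelial nuclei. The share counted rises with the members' levels, and whether members met in the same nuclei beyond their levels was not tested. In fibroblasts 6.12% of 1438 nuclei of taPVAT replicate 1 passed (Wilson 95% interval 4.99 to 7.48), against 1.43% (0.724 to 2.79) in the other taPVAT library and 0.637% (0.309 to 1.31) and 1.48% (0.828 to 2.63) in replicates 1 and 2 of BAT. Before thinning, and with the shallower nuclei included, these shares were 21.5%, 7.57%, 5.66% and 12.5%. In endothelial nuclei the thinned shares were 0.912% (0.627 to 1.32), 4.14% (2.75 to 6.19), 0.277% (0.127 to 0.603) and 4.002% (3.20 to 5.003), high in both replicate 2 libraries. In adipocyte nuclei they were 0.535%, 0.402%, 0.128% and 1.47%, highest in BAT replicate 2. The order of the taPVAT libraries in adipocyte nuclei turned with the count used. With at least 2 members the thinned shares were 3.28% (3.09 to 3.48) and 3.95% (3.58 to 4.36). Unthinned, with at least 3 members, they were 5.605% and 11.5%, in nuclei with medians of 3328 and 5034 UMIs. Over 5 classes and both tissues, the interval lay higher in replicate 2 in 4 of 10 pairs and lower in 1, that of taPVAT fibroblasts. Intervals cover counting error only, nuclei share a library, and no class is known to lack these genes, so no share could serve as a background for released RNA.

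Shares of nuclei with a UMI of a single member were also taken after thinning. A Fos UMI was found in 11.7% of thinned fibroblast nuclei of taPVAT replicate 1 (168 of 1438) and in 1.43% to 1.73% of those of the other 3 libraries. An Hsph1 UMI was found in 3.31%, 9.79%, 3.65% and 15.6% of thinned endothelial nuclei, and a Jun UMI in 7.12%, 13.9%, 5.49% and 14.5%. For both genes the replicate 2 libraries lay above the replicate 1 libraries, an order whose share over all genes was not taken. For no member did the share pass 21.2% of the thinned nuclei of a class and library, the value of Nr4a1 in adipocyte nuclei of BAT replicate 2.

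**Figure D5:**
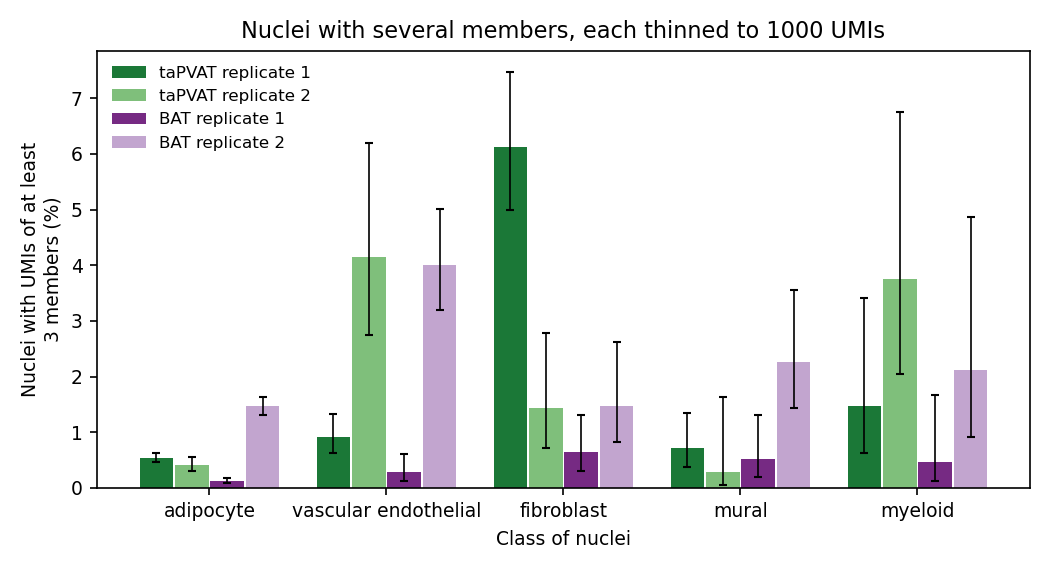
Share of nuclei with UMIs of at least 3 members after thinning to 1000 UMIs, by class and library; bars are 1 library each and error bars are Wilson 95% intervals for counting error. The highest bar is that of fibroblast nuclei in taPVAT replicate 1 (6.12%), followed by both replicate 2 libraries in endothelial nuclei.

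Related genes were taken from lists of the same pathways. Of 17 other immediate early transcription factors counted in adipocyte nuclei, 5 were at least 2-fold higher in replicate 2 of both tissues (Bhlhe40, Cebpb, Egr2, Myc and Nr4a3), against the 3.37% of all genes, and 0 were lower in both, against 4.15%. Their median log2 ratio was 0.26 in taPVAT and 0.74 in BAT, against -0.12 and -0.03 over all genes. Bhlhe40, a basic helix-loop-helix repressor, stood at 120, 387, 99.7 and 422 CPM and Nr4a3, a relative of Nr4a1, at 44.9, 194, 33.4 and 242 CPM. The third receptor of that family, Nr4a2, stood at 76.5, 41.2, 85.1 and 67.0 CPM, with replicate 2 below replicate 1 in both tissues. Cebpb, a regulator of adipogenesis, stood at 116, 262, 119 and 315 CPM. In endothelial nuclei 7 of 16 such factors were at least 2-fold higher in both tissues, against 3.15% of all genes. Their median log2 ratio was 1.03 in taPVAT and 1.45 in BAT in these nuclei.

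Of the signalling and feedback genes, 3 of 25 were at least 2-fold higher in both tissues in adipocyte nuclei (Dusp1, Ptgs2 and Trib1), against 3.37% of all genes, and 5 of 22 in endothelial nuclei, against 3.15%. Dusp1, a phosphatase that switches off stress kinases, stood at 57.2, 155, 28.3 and 180 CPM in adipocyte nuclei. Sik1, a kinase gene induced by cAMP, stood at 59.4, 29.5, 46.7 and 27.9 CPM, lower in replicate 2 in both tissues. In endothelial nuclei Sik1 stood at 79.0, 116, 64.4 and 109 CPM, higher in replicate 2 in both. Gadd45g at 162, 200, 197 and 345 CPM and Btg2 at 95.3, 95.8, 74.9 and 150 CPM were highest in BAT replicate 2 in adipocyte nuclei.

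Among 25 other heat shock and co-chaperone genes counted in adipocyte nuclei, 3 were at least 2-fold higher in both tissues (Hspa1b, Hspa4l and Hspa8), against 3.37% of all genes. In endothelial nuclei 6 of 21 were (Dnaja1, Dnaja4, Hspa1b, Hspa8, Hspb1 and Stip1), against 3.15%. The constitutive Hspa4 stood at 145, 234, 143 and 241 CPM in adipocyte nuclei, and Hsp90ab1, a cytosolic Hsp90, at 129, 259, 168 and 266 CPM in endothelial nuclei. The mitochondrial chaperonin Hspd1 stood at 124, 115, 117 and 170 CPM and Dnajb6 at 131, 171, 143 and 158 CPM in adipocyte nuclei, both under 2-fold. Of 9 upstream regulators, 0 were at least 2-fold higher or lower in both tissues in adipocyte or endothelial nuclei, where 3.03% of endothelial genes were lower in both. Hsf1, which encodes heat shock factor 1, stood at 37.0, 65.9, 39.6 and 72.2 CPM in adipocyte nuclei, and Crem, a cAMP-responsive factor, at 96.8, 191, 96.0 and 182 CPM. Creb1 and Mrtfa had ratios between 0.934 and 1.14. Of 11 genes of the unfolded protein and integrated stress responses, 1 was at least 2-fold higher in both tissues in adipocyte nuclei (Xbp1), against 3.37% of all genes, and 1 lower (Sesn2), against 4.15%. Sesn2 stood at 111, 37.3, 159 and 50.5 CPM, while the endoplasmic reticulum chaperone Hspa5 had ratios of 0.989 and 1.25, Ddit3 of 1.06 and 0.792, and Atf4 of 1.09 and 1.30.

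In the edgeR class comparisons, 8 of 18 other immediate early transcription factors and 14 of 27 signalling and feedback genes were called higher in endothelial than in adipocyte nuclei, against 23.5% of all genes, and 4 and 2 lower, against 22.5%. Of the 25 other heat shock and co-chaperone genes, 12 were higher and 2 lower in endothelial nuclei, against 23.5% and 22.5% of all genes. In fibroblast nuclei 4 were higher and 9 lower, against 18.8% and 23.8%, in mural nuclei 5 were higher and 3 lower, against 17.5% and 16.4%, and in myeloid nuclei 2 were higher and 7 lower, against 16.9% and 16.8%. Median log2 fold changes of this list were 0.33, -0.08, 0.06 and -0.22 in endothelial, fibroblast, mural and myeloid nuclei, and the difference between classes was not tested.

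The genes most like the summed members were ranked by Pearson correlation of log2(CPM + 5) over 20 class and library sums, among 6410 genes with a mean of at least 20 CPM. A sum of CPM weighs members by level, and the immediate early members did not share a single pattern. Over the same sums, r was -0.211 for Fos and -0.164 for Fosb with Nr4a1. It was 0.804 for Fos with Fosb and 0.917 for Atf3 with Nr4a1. A gene ranked here thus need not follow each member. The sums share libraries and released RNA, so no p is given. For the 8 summed immediate early members these were Dusp1 (r = 0.895), Mt-nd4l (0.822) of the mitochondrial genome, Cox7c (0.7997), which encodes a respiratory chain subunit, Hspa8 (0.803) and Utp18 (0.794). For the 2 summed heat shock members they were Stip1 (0.951), the Hsp70 and Hsp90 organising co-chaperone, Ubqln1 (0.927), the chaperonin subunit Cct5 (0.916), the Hsp90 co-chaperone Ptges3 (0.914) and Fxr1 (0.910). Dusp1, Hspa8 and Stip1 were already members of the lists above. Mt-nd4l stood at 618, 485, 409 and 1020 CPM in adipocyte nuclei. That was the order of the mitochondrial share, except that taPVAT replicate 2 and BAT replicate 1 were exchanged. The part of mitochondrial RNA in the members' levels was not tested beyond the limit of 10% given above.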

How the data were processed

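The deposited values were raw UMI counts per gene and barcode from 3-prime single-nucleus libraries, made with Cell Ranger 7.1.0 on Rnor_6.0 per the submitters' processing notes. The aimed recovery was 10000 nuclei per library, per the labels' protocols. Members and gene lists were chosen with earlier results of these data known. Nuclei with at least 500 genes were gated: at least 3 distinct markers of 1 class and 4 times the marker UMIs expected from depth, or 5 adipocyte markers with no other class near its gate. Gate thresholds were set on the data. Nuclei passing 2 gates were left out, and no doublet caller was used except Scrublet as an alternative. UMIs were summed per class and library. Sums were tested with edgeR 4.0.16 (TMM, filterByExpr, quasi-likelihood, threshold 0.05) in R 4.3.3, and DESeq2 1.42.0 was an alternative. The edgeR code was run on simulated data with 4-fold changes and a dispersion of 0.05. That dispersion was not estimated from these libraries, so the run does not show what the fits can detect here. Ratios of replicate 2 to 1 used CPM and had no test; 2-fold counts took genes with a mean of at least 20 UMIs. Listed genes were named for the largest summed counts, 4 per list, or as the genes behind a count, after their values were seen.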

Additional observations from a re-analysis of the deposited data

Results flagged for a closer look

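For 5 members in adipocyte nuclei, 1 in fibroblast nuclei and 1 in myeloid nuclei, replicate 2 lay at least 2-fold below replicate 1 in taPVAT and at least 2-fold above it in BAT. Over all genes counted, 1.05%, 0.0852% and 0.0572% did so in these classes. The 5 adipocyte members were 3 with TMM-scaled totals, with at least 1000 genes per nucleus or with at most 10% mitochondrial UMIs, and 4 with the highest Scrublet scores removed. The fibroblast count was 0 with at most 10% mitochondrial UMIs, and the myeloid count was 0 under that limit, with at least 1000 genes per nucleus and with the stricter marker gate. In these 3 settings myeloid Fosb had too few UMIs to be counted, and its log2 ratios were -3.01 to -2.56 in taPVAT and 1.40 to 1.80 in BAT, from -2.54 and 1.29. Other settings added members with this combination. In endothelial nuclei there were 0, but Fos and Fosb (2) with at least 1000 genes per nucleus or with the stricter marker gate, Fos (1) with at most 10% mitochondrial UMIs and Fosb (1) with the highest Scrublet scores removed, against 0.0299% to 0.0986% of genes. In mural nuclei there were 0, but 1 member (Fos or Fosb) in 5 of 6 alternatives, against 0.0954% to 0.157% of genes. Every one of these rests on 1 library against 1 in each tissue, and the difference between the tissues was not tested. The log2 ratio of replicate 2 to replicate 1 was higher in BAT than in taPVAT by 4.1 for Fosb, 3.7 for Egr1, 3.39 for Fos, 2.16 for Ier2 and 2.13 for Junb in adipocyte nuclei. It was higher by 2.65 for Junb in fibroblast nuclei. For Fosb in myeloid nuclei it was higher by 3.83, from 46 and 5 UMIs in taPVAT and 13 and 17 in BAT. Myeloid Fosb reached the required mean of 20 UMIs only through taPVAT replicate 1, where it was highest.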

How the results depend on the processing

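Against 0 members called between taPVAT and BAT, leaving out 1 library gave 0 to 1 in adipocyte, endothelial and mural nuclei and 0 to 3 in fibroblast nuclei, and dropping the low-count filter gave 1 in fibroblast and 1 in mural nuclei. The fits with a called member called 0.269% to 1.42% of all genes. Mural over adipocyte calls were 5 members, and 2 to 5 with 1 library left out. Pairs of libraries whose interval for multi-member nuclei lay higher in replicate 2, without overlap, were 4 of 10. They were 7 when at least 2 members were asked for, 6 with thinning to 2000 UMIs and 7 without thinning. Over the 4 comparisons of a class with adipocyte nuclei, 370 member results under an alternative kept their direction and side of the threshold, 30 lost the call and 0 reversed. Between tissues, adipocyte Atf3 was called in opposite directions without BAT replicate 1 and without BAT replicate 2, at -1.78 and 2.27 log2 units. With replicate number as a block, 0 members were called between tissues in each fit, while all genes called went from 0 to 157 in all nuclei, 0 to 237 in adipocyte, 0 to 244 in endothelial, 14 to 310 in fibroblast, 0 to 52 in mural and 0 to 41 in myeloid nuclei. Same-numbered libraries deviated together (r = 0.528 to 0.764 over genes), but with 2 pairs and no label for the number the pairing is not established. DESeq2 called 112 genes between tissues in all nuclei, 58 in adipocyte and 72 in fibroblast nuclei. Some members had too few UMIs to be counted: Dnajb1 in fibroblast, mural and myeloid nuclei, and Egr1 and Atf3 in myeloid nuclei. The causes of these changes were not tested.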
